A study of Mus musculus with 6 samples.

Results

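Immediate early genes are switched on within minutes of a signal, before any new protein is made, and 10 of them are described here: Fos, Fosb, Jun, Junb, Egr1, Ier2, Dusp1, Zfp36, Atf3 and Klf6. They were taken by name, as early-response genes that also answer to the dissociation of tissue, and all 10 were found among the 17739 genes of the deposited table. RNA came from mammary epithelial organoids, which are fragments of the gland's epithelium, of FVB mice on lactation day 1. The groups were 3 mice with a conditional knockout of Nmi, given in the labels as Nmi-/-, and 3 wild-type mice, with 1 library per mouse. Nmi, named for its binding to N-Myc, codes for a partner of STAT factors that interferon induces. The sources used here do not give the Cre line that deletes Nmi, nor the cells in which it acts. All 6 mice went through the same digestion of the second and the third glands, with collagenase I at 1 mg/mL and Pronase at 0.1 mg/mL for 2 hours at 37 °C. No undigested gland is among the 6 libraries, so whether digestion itself raised these genes was not tested.

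As background, growth factors, cytokines, stretch and cell damage activate MAP kinases, which act on factors already bound at immediate early promoters, such as SRF with its ELK partners at CArG boxes and CREB at cyclic AMP response elements (CRE). Fos and Jun proteins pair through leucine zippers to form AP-1, a transcription factor, while Egr1 and Klf6 are zinc finger factors. Dusp1 and Zfp36 belong to the brakes of the response: Dusp1 is a phosphatase that inactivates MAP kinases, and Zfp36 (tristetraprolin) binds AU-rich mRNAs and speeds their decay. In the mammary gland AP-1 and Egr1 are known from growth, involution and tumour cells, and in mouse muscle stem cells the same genes are known to respond to enzymatic dissociation.

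The letters in front of the start sites are shown first, for 2 genes that varied widely between the mice (Fos, Fosb), 2 that varied less (Jun, Junb) and Klf6, whose highest library was one in which Fos was lowest. RefSeq windows were found for 8 of the 10 genes, and Egr1 and Ier2 had no entry. Each line gives the 250 bases before the start on the gene's strand, from RefSeq on build GRCm38.p6, with matches to a CArG box, TGACG (the core of a CRE), TGACATCA (an AP-1 site known from the Jun promoter) and TATAAA in capitals. The windows are chr12:85473640-85473889 on the plus strand for Fos, chr7:19310046-19310295 on the minus strand for Fosb, chr4:95052223-95052472 on the minus strand for Jun, chr8:84978749-84978998 on the minus strand for Junb and chr13:5861239-5861488 on the plus strand for Klf6.
Fos: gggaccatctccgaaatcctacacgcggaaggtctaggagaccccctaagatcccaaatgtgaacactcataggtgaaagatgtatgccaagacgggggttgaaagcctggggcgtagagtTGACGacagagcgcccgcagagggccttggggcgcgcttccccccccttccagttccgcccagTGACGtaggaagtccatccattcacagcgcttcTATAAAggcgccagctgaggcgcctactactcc
Fosb: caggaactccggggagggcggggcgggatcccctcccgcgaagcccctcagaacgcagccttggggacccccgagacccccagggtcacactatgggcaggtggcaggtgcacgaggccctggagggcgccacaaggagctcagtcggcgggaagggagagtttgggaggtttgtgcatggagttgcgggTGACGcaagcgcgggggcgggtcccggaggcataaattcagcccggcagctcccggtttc
Jun: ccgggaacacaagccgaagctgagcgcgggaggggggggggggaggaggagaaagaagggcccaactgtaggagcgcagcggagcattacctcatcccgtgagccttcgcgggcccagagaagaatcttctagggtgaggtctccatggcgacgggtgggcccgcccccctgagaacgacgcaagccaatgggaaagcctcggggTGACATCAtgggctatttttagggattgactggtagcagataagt
Junb: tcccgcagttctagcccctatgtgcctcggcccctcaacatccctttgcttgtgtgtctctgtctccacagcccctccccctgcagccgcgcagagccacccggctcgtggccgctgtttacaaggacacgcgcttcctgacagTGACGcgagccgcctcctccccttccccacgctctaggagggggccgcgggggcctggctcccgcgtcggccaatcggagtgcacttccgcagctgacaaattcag
Klf6: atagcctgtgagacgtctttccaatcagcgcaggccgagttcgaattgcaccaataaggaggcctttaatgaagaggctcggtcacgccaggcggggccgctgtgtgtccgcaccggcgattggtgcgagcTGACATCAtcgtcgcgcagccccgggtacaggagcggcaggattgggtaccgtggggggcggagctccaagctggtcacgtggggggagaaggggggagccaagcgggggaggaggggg

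Both strands of the 8 windows and of the same 250 bases before 32851 start sites were searched. TGACG lay in 5 of the 8 (Fos, Fosb, Junb, Dusp1 and Atf3), against 17.8% of all windows. In Fos it lay 129 and 66 bases before the start, in Fosb 60 and in Junb 106, counted to its first base. The full palindrome TGACGTCA, which contains TGACG, was found in Dusp1 alone among the 8, and in 1.55% of all windows. TGACATCA lay in Jun, 45 bases before the start, and in Klf6, against 2.93% of all windows. A CArG box lay in Zfp36 alone, 58 bases before the start, against 1.47% of all windows. The RefSeq starts used for Zfp36, Dusp1 and Atf3 lie inside the genes' GENCODE spans, so these are not the outer starts of the annotated genes. All 250 bases of the Zfp36 window are exonic in GENCODE. The starts of Fosb and Klf6 lie just inside, with 6 and 7 exonic bases of the gene in the window. That of Junb lies outside its GENCODE span, which ends at 84978718. TATAAA was found in Fos alone, 33 bases before the start, against 12.4% of all windows. The GC box GGGCGG was found in 7 of the 8, against 32.7%, and TGANTCA in 0 of the 8, against 6.75%. Matches describe these letters only, and sites further upstream were not searched.

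In the GENCODE M21 annotation of GRCm38 the genes lie on separate chromosomes, except that Junb shares one with Ier2 and Fosb one with Zfp36. Fos lies at chromosome 12 from 85473890 to 85477273, Jun at chromosome 4 from 95049034 to 95052222, Zfp36 at chromosome 7 from 28376784 to 28380253 and Egr1 at chromosome 18 from 34859823 to 34864984. Exons of Jun overlap Junos on the opposite strand, those of Junb overlap Prdx2, those of Dusp1 overlap Ergic1 and those of Zfp36 overlap Gm44710. The strand setting of the counting was not given, so reads from these partners cannot be told apart from the member's own. The other 6 had no exon overlap with another annotated gene.

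Values are FPKM, fragments scaled to gene length and to the library's total, as the authors deposited them. Nmi, the targeted gene, had 0.188, 0.547 and 0.564 FPKM in the knockout libraries and 4.60, 2.82 and 2.32 FPKM in the wild-type libraries. Transcripts of 15 milk protein genes held 66.1%, 63.0% and 75.3% of the FPKM sum in knockout replicates 1, 2 and 3 and 47.4%, 60.6% and 69.5% in wild-type replicates 1, 2 and 3. Along the first principal component, which held 73.8% of the variance over 9767 genes, knockout replicate 3 lay at 51.9 and wild-type replicate 1 at -44.5, with the other libraries between -15.4 and 11.8. These libraries at the ends of the component also stand at the ends of several genes below, so results are given with and without them. The luminal keratin gene Krt8, which marks the labelled epithelium, was present in every library, at 198 to 983 FPKM in the knockout and 647 to 1515 FPKM in wild type. The absolute depth is unknown. The step between low FPKM values, which is smaller in a deeper library, lay between 0.889 and 1.03 with that of wild-type replicate 1 set to 1.

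All 10 genes were expressed in all 6 libraries and passed the filter on low values (at least 1 FPKM in at least 3 libraries). By mean over the 6 libraries, Klf6 was highest (152 ± 46.5 FPKM, SD, n = 6), followed by Jun (109 ± 22.6), Junb (101 ± 12.95), Zfp36 (97.6 ± 60.6), Atf3 (75.9 ± 30.4) and Fos (73.3 ± 60.1). Dusp1 (49.5 ± 11.9), Ier2 (34.6 ± 3.76), Fosb (27.1 ± 17.1) and Egr1 (16.0 ± 10.4) followed. Of the 9 neighbouring pairs in this order, 8 differed by less than the larger of their SDs, the exception being Dusp1 over Ier2. Fosb over Egr1 was the 1 pair with the same order in every library. The lowest of the 10, Egr1, stood at percentile 77.2 of the mean levels of all 9767 genes tested, and the highest, Klf6, at percentile 98.7.

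**Figure D1:**
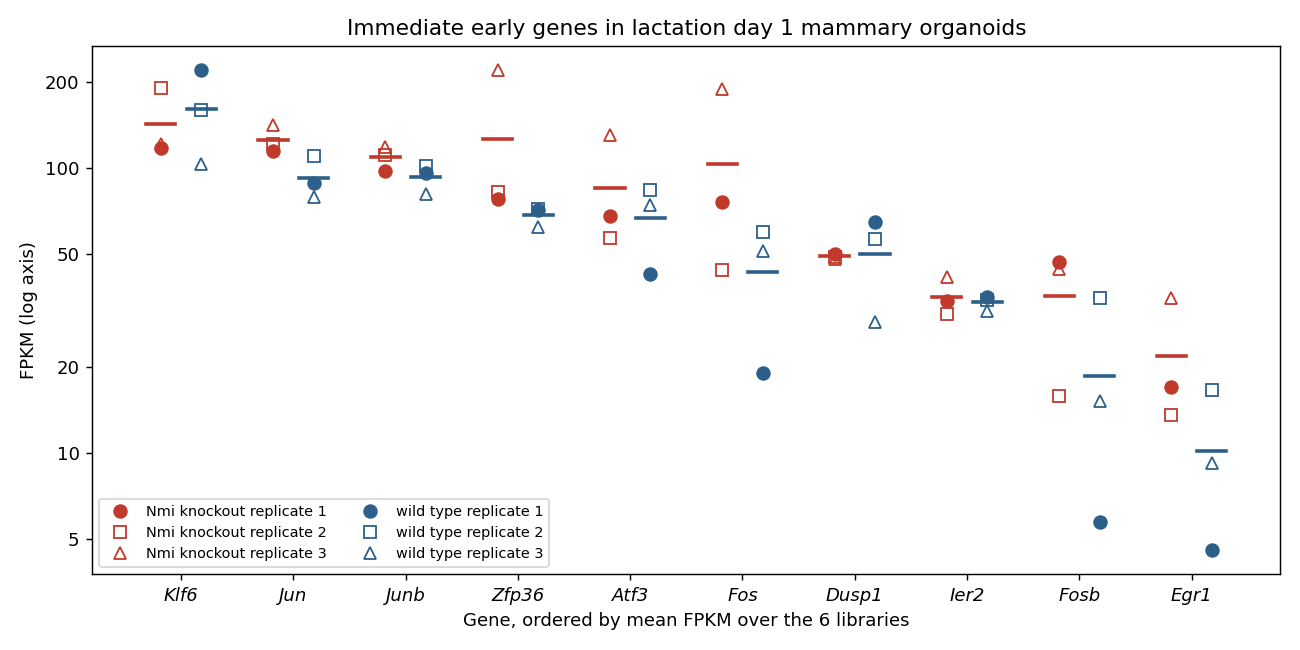
FPKM of the 10 immediate early genes on a log axis, 1 symbol per library, with Nmi knockout (red) left of wild type (blue) for each gene and short bars at the group means (n = 3 each). Fos, Fosb and Egr1 spread over 9.92-, 8.16- and 7.64-fold between libraries, against 1.35-fold for Ier2 and 1.46-fold for Junb.

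The genes fell apart by how much they varied between mice. Fosb and Fos had SDs of 1.10 and 1.06 on the log2(FPKM + 1) scale over the 6 libraries, ranks 35 and 43 among the 9767 genes tested, and Egr1 had 0.90, rank 121. The median SD of all genes was 0.31. Zfp36 (0.66) and Atf3 (0.54) also varied more than most genes. Jun (0.30), Dusp1 (0.39) and Klf6 (0.43) were near or somewhat above the median, while Junb (0.19) and Ier2 (0.15) varied less than most, at percentiles 16.6 and 7.99 of all SDs. Much of this spread lay within the genotypes: the pooled SD within groups was 0.96 for Fos, 1.04 for Fosb and 0.76 for Egr1.

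The wide spread had a direction that several genes shared. Knockout replicate 3 was the highest library for 7 of the 10 genes (Fos, Jun, Junb, Egr1, Ier2, Zfp36 and Atf3). Wild-type replicate 1 was the lowest for 4 (Fos, Fosb, Egr1 and Atf3) and the highest for 2 (Dusp1 and Klf6). Wild-type replicate 3 was the lowest for the 5 genes Jun, Junb, Dusp1, Zfp36 and Klf6. The share of all genes with their highest or lowest value in these libraries was not computed. Whether these counts are particular to the 10 was therefore not tested. The mean centred log2 level of the 10 was 0.13, -0.07 and 0.68 in knockout replicates 1, 2 and 3 and -0.50, 0.13 and -0.37 in wild-type replicates 1, 2 and 3. The same libraries differed in their epithelial markers. The sum of 7 luminal markers came to 1045 FPKM in knockout replicate 3 and 5238 FPKM in wild-type replicate 1, against 2583 to 3450 FPKM in the other 4. The milk protein list ran the other way. It held 75.3% of the FPKM sum in knockout replicate 3 and 47.4% in wild-type replicate 1, against 60.6% to 69.5% in the other 4. The part of either list in the result was not tested. In bulk samples fewer cells of a type and less RNA per cell cannot be told apart.

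**Figure D2:**
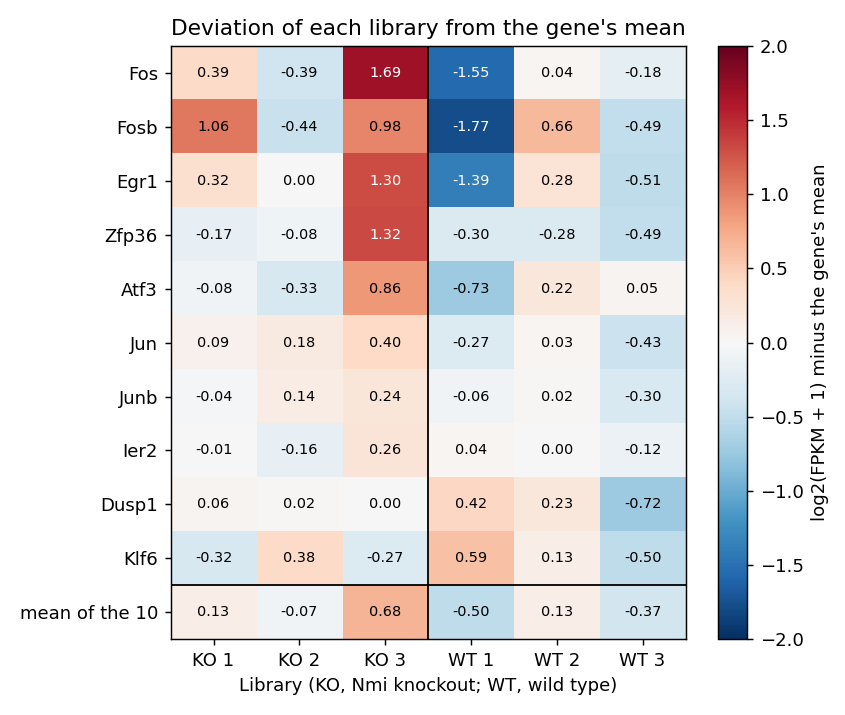
Deviation of each library from the gene's own mean on the log2(FPKM + 1) scale, for the 10 genes and their mean (bottom row), with the 3 knockout libraries left of the 3 wild-type libraries. Knockout replicate 3 reaches 1.69 for Fos, 1.32 for Zfp36 and 1.30 for Egr1, and wild-type replicate 1 reaches -1.77 for Fosb and -1.55 for Fos.

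In the comparison of the genotypes, 9 of the 10 genes had a fold change above 0 and 0 of the 10 passed the adjusted threshold. The fit was limma on log2(FPKM + 1) across the 9767 genes, with Benjamini-Hochberg adjustment and a threshold of 0.05. It called 0 genes in all (0% of those tested), and at an unadjusted p under 0.05 it had 130 genes (1.33%), of which 18 were higher (0.184%) and 112 lower (1.15%) in the knockout. Among the 10, Egr1 alone reached an unadjusted p under 0.05. The median log2 fold change of the 10 genes was 0.38, against -0.21 for all genes tested, of which 18.3% lay above 0. All 10 lay above the median of all genes. Without both end libraries of the first component the medians were 0.22 for the 10 genes and 0.02 for all genes, and without knockout replicate 3 alone 0.20 and -0.08. After trimmed-mean rescaling they were 0.64 and 0.01, with 96 genes higher and 77 lower in the knockout at an unadjusted p under 0.05. A log2 fold change above 0.5 was seen for 4 of the 10 (Fos, Fosb, Egr1 and Zfp36), against 1.25% of all genes tested. That count was 3 without knockout replicate 3, 3 without wild-type replicate 1, 0 without both, 0 with library quality weights and 6 after trimmed-mean rescaling. The share of all genes above 0.5 was not computed in these settings. In the knockout the quality weights were 2.67, 0.677 and 0.307 for replicates 1, 2 and 3. In wild type they were 0.417, 5.499 and 0.786. Results with these weights therefore rest mainly on knockout replicate 1 and wild-type replicate 2. Trimmed-mean rescaling moved the median of all genes from -0.21 to 0.01, so the 6 cannot be set against the 1.25%. Transcripts of the 10 together made up 0.446%, 0.437% and 0.869% of the FPKM outside the milk protein list in the knockout and 0.325%, 0.435% and 0.365% in wild type. Fos, Egr1 and Fosb had the highest fold changes of the 10, at ranks 5, 8 and 9 of 9767, which describes their size and not their reliability.

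Fos, the AP-1 partner with the briefest burst of transcription, had 76.1, 44.0 and 190 FPKM in the knockout libraries and 19.1, 59.7 and 51.3 FPKM in the wild-type libraries. The groups overlap, since knockout replicate 2 lies below 2 of the wild-type libraries. Means were 103 ± 76.7 FPKM in the knockout and 43.4 ± 21.4 FPKM in wild type (SD, n = 3 each). On the log2 scale the difference was 1.12 (SE 0.54, 95% confidence interval -0.05 to 2.30, adjusted p = 0.768, limma). It was 0.56 without knockout replicate 3, 0.63 without wild-type replicate 1 and 0.06 without both.

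Fosb, a close relative of Fos, had 46.7, 15.9 and 44.2 FPKM in the knockout and 5.73, 35.1 and 15.3 FPKM in wild type. Here 2 knockout libraries exceeded every wild-type library and the remaining one matched the middle of wild type. The log2 fold change was 1.07 (SE 0.56, adjusted p = 0.768, limma), 0.45 without wild-type replicate 1 and 0.23 without both end libraries.

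Jun, the main partner of Fos, had 114, 121 and 142 FPKM in the knockout and 89.0, 110 and 79.1 FPKM in wild type. All 3 knockout libraries lay above all 3 wild-type libraries, although the nearest values differed by little. Means were 126 ± 14.2 FPKM in the knockout and 92.7 ± 15.7 FPKM in wild type (SD, n = 3 each), a ratio of 1.36. The log2 fold change was 0.45 (SE 0.28, adjusted p = 0.768, limma), and the exact permutation test gave p = 0.1, the smallest that 3 against 3 mice allow. It was 0.33 without both end libraries and between 0.34 and 0.57 when each library was left out in turn. It came to 0.17 with library quality weights and 0.71 after trimmed-mean rescaling.

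Junb, which can stand in for Jun in AP-1 and often opposes it, had 98.0, 111 and 119 FPKM in the knockout and 96.0, 102 and 81.3 FPKM in wild type. The groups overlap by 1 library. Its log2 fold change was 0.23 (SE 0.27, adjusted p = 0.773, limma). Atf3, a stress-induced factor that pairs with Jun proteins, had 67.7, 56.8 and 131 FPKM in the knockout and 42.6, 83.6 and 74.0 FPKM in wild type. Knockout replicates 1 and 2 lay within the wild-type range, and the log2 fold change of 0.31 (SE 0.38, adjusted p = 0.774, limma) became -0.05 without knockout replicate 3 and -0.34 without both end libraries.

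Egr1, a zinc finger activator driven by SRF and ELK factors, had 17.1, 13.6 and 34.9 FPKM in the knockout and 4.57, 16.7 and 9.24 FPKM in wild type. The highest wild-type library lay between the knockout libraries, so the groups overlap. Means were 21.9 ± 11.4 FPKM in the knockout and 10.2 ± 6.11 FPKM in wild type (SD, n = 3 each). The log2 fold change came to 1.08 (SE 0.44, 95% interval 0.12 to 2.04, unadjusted p = 0.0305 and adjusted p = 0.768, limma), with 0.70 without knockout replicate 3, 0.65 without wild-type replicate 1 and 0.27 without both end libraries.

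Klf6, a zinc finger factor of the Krüppel-like family, had 117, 191 and 122 FPKM in the knockout and 221, 160 and 103 FPKM in wild type. It was the only one of the 10 with a fold change under 0 (-0.14, SE 0.36, adjusted p = 0.869, limma). The sign depended on the scaling and on the libraries, with 0.13 after trimmed-mean rescaling, which sets the median of all genes to 0.01, and 0.22 without both end libraries. Ier2, a small nuclear protein of the early response, had 34.2, 30.8 and 41.4 FPKM in the knockout and 35.4, 34.4 and 31.6 FPKM in wild type. It varied least of the 10 over the 6 libraries, with a log2 fold change of 0.06 (SE 0.25, 95% interval -0.50 to 0.62).

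Of the brakes of the response, Zfp36 had 77.7, 82.8 and 220 FPKM in the knockout and 71.1, 71.8 and 61.9 FPKM in wild type. All 3 knockout libraries lay above all 3 wild-type libraries, but knockout replicate 3 stood far above the rest. The log2 fold change was 0.71 (SE 0.39, adjusted p = 0.768, limma), 0.23 without knockout replicate 3 and 0.26 without both end libraries. The exact permutation test gave p = 0.1, the smallest possible here. Dusp1 had 50.2, 48.9 and 48.1 FPKM in the knockout and 64.7, 56.5 and 28.8 FPKM in wild type. Its knockout libraries were almost level and lay inside the wild-type range, with a log2 fold change of 0.05 (SE 0.33, 95% interval -0.66 to 0.77). The ratio of Zfp36 to Dusp1 had overlapping groups (exact permutation p = 0.4). Jun and Zfp36 were thus the 2 of 10 genes whose groups did not overlap, both higher in the knockout, where 0.778% of all genes tested did so. After trimmed-mean rescaling Junb was a further one, among 284 genes in all, and Jun (unadjusted p = 0.0315, limma) took the place of Egr1 (unadjusted p = 0.0589) under 0.05, with no gene past the adjusted threshold.

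**Figure D3:**
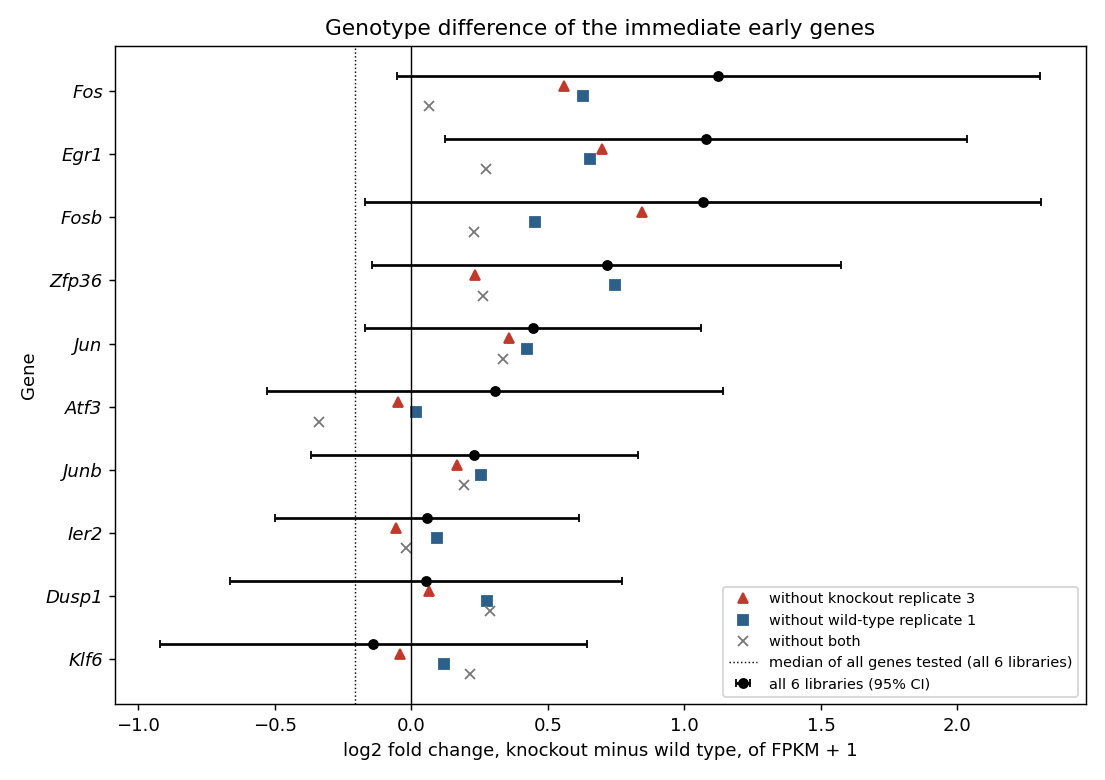
Log2 fold change (knockout minus wild type, of FPKM + 1) of each gene with all 6 libraries (black, with the 95% confidence interval from limma), without knockout replicate 3 (red triangles), without wild-type replicate 1 (blue squares) and without both (grey crosses). Fos is at 1.12 with all libraries and 0.06 without both, while Jun is at 0.45 and 0.33. The removed libraries hold the highest and the lowest value of Fos. The lowest value of Jun is in wild-type replicate 3, which stays in, so the 2 shifts are not comparable. A dotted line marks the median of all genes tested (-0.21).

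Ratios between genes of the same library do not depend on how the library was scaled. Fos over Jun was 0.665, 0.362 and 1.34 in the knockout and 0.215, 0.543 and 0.648 in wild type. The groups overlap, and the exact permutation test gave p = 0.4. Junb over Jun was 0.856, 0.913 and 0.838 in the knockout and 1.08, 0.928 and 1.03 in wild type. Jun thus stood higher relative to Junb in all 3 knockout libraries, with an exact permutation p of 0.1, the smallest possible, and 0.467 after Benjamini-Hochberg adjustment over the 7 ratios computed. Fosb over Fos had a log2 difference of -0.01 (exact permutation p = 1). The other ratios computed were those of Zfp36 to its relatives Zfp36l1 and Zfp36l2 (exact permutation p = 0.4), Fos to Klf6 (p = 0.4), Zfp36 to Dusp1, and the Fos to the Jun family (p = 0.3), all with overlapping groups.

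The Fos family (Fos, Fosb, Fosl1 and Fosl2) summed to 171, 120 and 275 FPKM in the knockout and 80.0, 146 and 105 FPKM in wild type. Its make-up differed between mice. Fos itself took 44.6%, 36.5% and 69.1% of the family in the knockout and 23.9%, 40.8% and 48.6% in wild type. Fosl2, a longer-lived relative, took 13.5% in knockout replicate 3 and 61.2% in wild-type replicate 1, while its own level lay between 35.3 and 49.0 FPKM in all libraries. The Jun family (Jun, Junb and Jund) was steadier in make-up, with a sum of 391, 400 and 447 FPKM in the knockout and 407, 422 and 319 FPKM in wild type. Jund, which is expressed in most resting cells, was its largest member in every library. It held 45.7%, 42.0% and 41.7% of the family in the knockout and 54.5%, 49.7% and 49.7% in wild type, so each knockout share lay below each wild-type share. These shares were not tested, and a higher Jun lowers the share of Jund. Jund itself had 179, 168 and 187 FPKM in the knockout and 222, 210 and 158 FPKM in wild type. Its groups overlap, with a log2 fold change of -0.13 (SE 0.29, adjusted p = 0.849, limma).

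**Figure D4:**
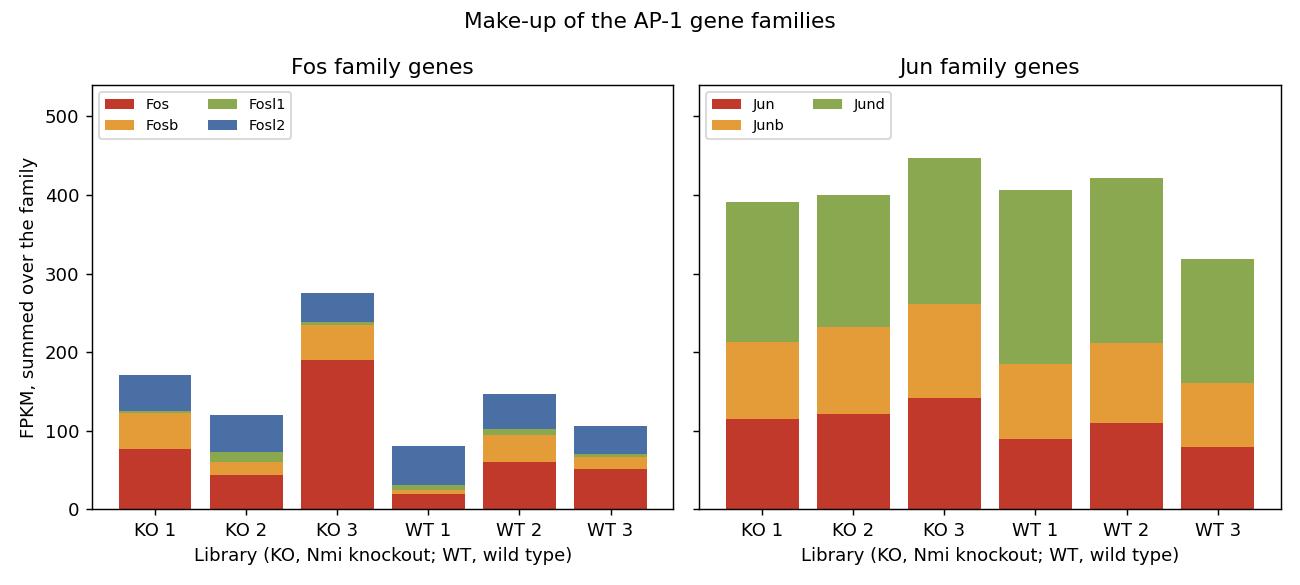
FPKM of the Fos family genes (left) and the Jun family genes (right), stacked per library, with the 3 knockout libraries left of the 3 wild-type libraries. The Fos family sum is 275 FPKM in knockout replicate 3 and 80.0 FPKM in wild-type replicate 1, while the Jun family stays between 319 and 447 FPKM.

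Other genes of the pathway were read from 8 related lists, in which 0 genes passed the adjusted threshold in either direction (limma, Benjamini-Hochberg adjustment). The list medians below are read against the -0.21 of all genes, since trimmed-mean rescaling turns several above 0, such as the AP-1 and ATF partners (0.12), the heat shock genes (0.20), the feedback inhibitors (0.22), the MAP kinases (0.01) and the AP-1 targets (0.14), and leaves the ATF4 and ATF3 stress genes at -0.13. Of 43 other immediate early genes, 41 were tested, with a median log2 fold change of 0.04, and 29 lay above the median of all genes. Tnfaip3, an inhibitor of NF-kB, had 2.79, 3.22 and 4.38 FPKM in the knockout and 1.90, 2.12 and 2.46 FPKM in wild type, with no overlap (unadjusted p = 0.0461, limma). Gadd45b, a stress sensor, had 12.2, 17.0 and 16.1 FPKM in the knockout and 41.7, 18.04 and 20.9 FPKM in wild type, so the groups did not overlap in the other direction. Ier3, a survival factor of the early response, had 92.0, 136 and 58.0 FPKM in the knockout and 305, 123 and 126 FPKM in wild type. Csrnp1, a nuclear protein induced by AXIN, had a log2 fold change of 0.56 (SE 0.34), and Ctgf, a matrix-associated target of YAP and SRF, one of -0.47 (SE 0.47). Wild-type replicate 1 was the highest library for Gadd45b, Ier3 and Ctgf, while it was the lowest for Fos, Fosb and Egr1.

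Of 15 further AP-1 and ATF partners, 13 were tested, with a median log2 fold change of -0.14. The genes with the smallest p were Atf1, Atf2, Atf4 and Atf7, with log2 fold changes of -0.44, -0.34, -0.39 and -0.26, each with overlapping groups. Of 15 genes in the list of heat shock genes known from dissociated tissue, all were tested and the median was -0.07. Hspa1a, the inducible HSP70, had 130, 163 and 317 FPKM in the knockout and 55.6, 182 and 167 FPKM in wild type. It was highest in knockout replicate 3 and lowest in wild-type replicate 1, as Fos was, and so was its neighbour Hspa1b (279 and 105 FPKM in these libraries). The Hspa1a and Hspa1b genes are near-identical copies, so the division of reads between them is uncertain. Hspb1, a small heat shock protein, ran the other way, with 147, 177 and 73.2 FPKM in the knockout and 343, 293 and 109 FPKM in wild type. Hsp90aa1 had a log2 fold change of -0.30 (SE 0.33) and Hsp90ab1, its constitutive relative, -0.28 (SE 0.33).

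Upstream, 22 of 23 MAP kinases and the factors they act on were tested, with a median of -0.23, close to that of all genes. Mapk3, which encodes ERK1, had 36.5, 43.3 and 12.9 FPKM in the knockout and 69.2, 45.2 and 33.1 FPKM in wild type, with overlapping groups. Mapkapk2, the kinase that p38 activates to act on tristetraprolin, had a log2 fold change of -0.59 (SE 0.35), Mapk14, which encodes p38 itself, -0.45 (SE 0.29), and Mkl2, a coactivator of SRF, -0.51 (SE 0.34). Map2k3, a kinase upstream of p38 and one of the most abundant genes of the list, had -0.23 (SE 0.34). Among feedback inhibitors of MAP kinases other than Dusp1, 13 of 14 were tested, with a median of -0.01. Dusp4 (0.37, SE 0.30) and Dusp6 (0.34, SE 0.29), which act on ERK in the nucleus and the cytoplasm, had values above 0, Dusp16 (-0.39, SE 0.30) and Dusp14 (-0.31, SE 0.30) below it. The more abundant Dusp7 and Dusp5 were at -0.02 (SE 0.32) and -0.09 (SE 0.27).

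Downstream, 13 of 18 genes known as AP-1 targets were tested, with a median of -0.08, and 7 lay above the median of all genes. Krt18, a luminal keratin that is also in the list of luminal markers, had 638, 908 and 210 FPKM in the knockout and 1627, 1022 and 719 FPKM in wild type. Cd44 (-0.60, SE 0.41), an adhesion receptor, Mmp3 (-0.33, SE 0.29), a matrix protease, and the cyclin gene Ccnd1 (0.38, SE 0.28) had overlapping groups. Spp1, which encodes the milk protein osteopontin and was the most abundant of the list, had 3319, 1813 and 6316 FPKM in the knockout and 1044, 1918 and 5600 FPKM in wild type. Of 11 mRNAs known to be bound by tristetraprolin, 7 were tested, with a median of -0.18. Tnf had 1.44, 1.67 and 1.04 FPKM in the knockout and 2.02, 1.40 and 1.68 FPKM in wild type. The chemokine gene Cxcl1 had 19.6, 35.5 and 38.7 FPKM in the knockout and 88.4, 30.4 and 20.9 FPKM in wild type, and Vegfa had 25.7 to 30.4 FPKM in the knockout and 25.7 to 30.1 FPKM in wild type.

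Genes of the ATF4 stress response, some of which Atf3 also binds, had the lowest median of the 8 related lists, at -0.39 for 10 genes tested. Of these, 1 of the 10 lay above the median of all genes. Sesn2, which restrains mTORC1, had 6.77, 6.93 and 6.03 FPKM in the knockout and 11.0, 11.6 and 8.15 FPKM in wild type, with no overlap (unadjusted p = 0.0353, limma). Vldlr, a lipoprotein receptor, had 1.58, 1.76 and 1.499 FPKM in the knockout and 3.38, 2.52 and 2.06 FPKM in wild type, also with no overlap (unadjusted p = 0.0437, limma). These were 2 of 10 genes, where 1.15% of all genes tested were lower at an unadjusted p under 0.05 and 3.83% lay below wild type without overlap. Chac1 (-0.52, SE 0.30) and Trib3 (-0.49, SE 0.30), both targets of ATF4, had overlapping groups. The chaperone gene Hspa5 (-0.35, SE 0.34) and Xbp1 (0.0057, SE 0.32), a secretory pathway factor, were the most abundant of the list.

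**Figure D5:**
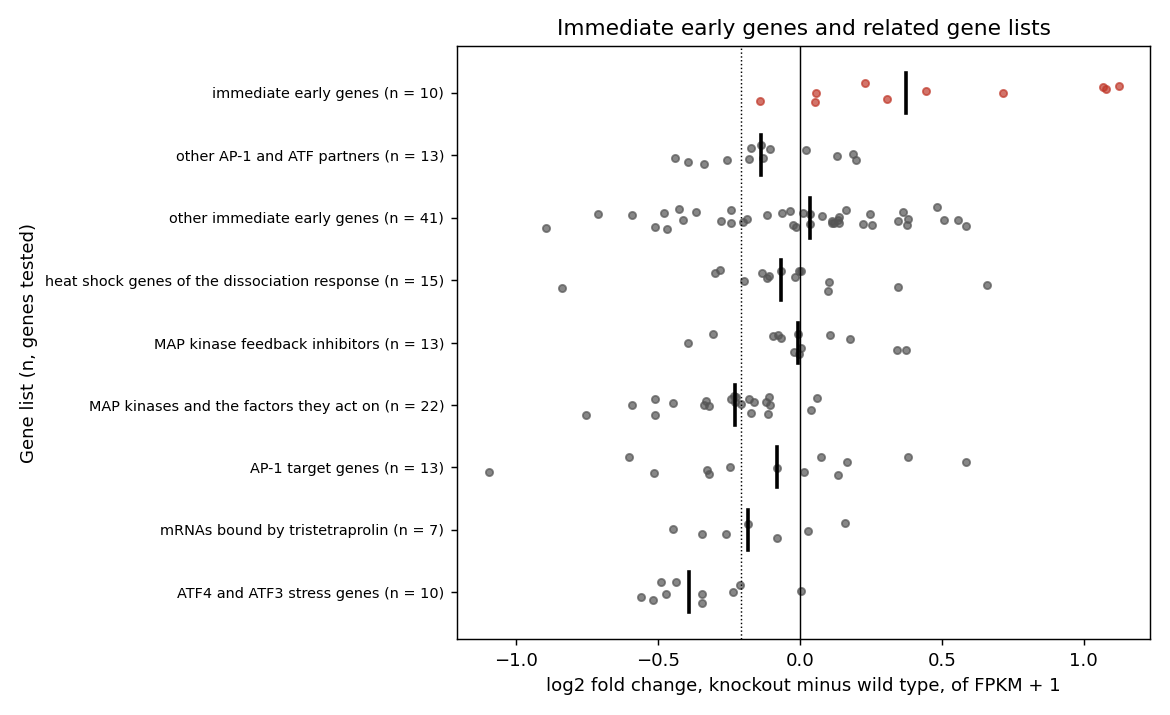
Log2 fold change (knockout minus wild type, of FPKM + 1) of every tested gene in the 10 immediate early genes (red) and in 8 related lists (grey), with a bar at each list's median. Among the lists shown, the 10 genes have the highest median (0.38) and the ATF4 and ATF3 stress genes the lowest (-0.39). The dotted line marks the median of all genes tested (-0.21). Some marker lists not shown lay further out or close by. Their medians were 0.56 for 4 macrophage markers tested, 0.32 for the 15 genes of the milk protein list and -0.80 for 7 luminal markers.

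Other cell types that digested glands could hold were read from lists of their markers. The 8 macrophage markers summed to 11.4, 23.9 and 26.4 FPKM in the knockout and 12.9, 17.0 and 15.5 FPKM in wild type, with Adgre1 (F4/80) at or below 0.21 FPKM. Of 7 lymphocyte markers, 5 were in the table and all 5 stayed below 1 FPKM in every library, Cd3e being at 0 in the 3 wild-type libraries. Endothelial markers summed to 49.8 to 94.7 FPKM in the knockout and 49.7 to 96.4 FPKM in wild type, and fibroblast markers to 32.5 to 59.4 FPKM in the knockout and 22.8 to 52.4 FPKM in wild type. Basal epithelial markers summed to 373 to 1349 FPKM in the knockout and 475 to 1004 FPKM in wild type. Of 7 adipocyte markers, 6 were in the table, summing to 1.95 to 2.39 FPKM in the knockout and 1.46 to 2.53 FPKM in wild type, with Adipoq at 0 in 4 libraries. Haemoglobin and Alas2 transcripts summed to 26.3 FPKM in knockout replicate 3, against 4.96 to 12.0 FPKM in the other libraries. The part of these cells in the levels of the 10 genes was not tested.

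Genes outside the 10 were ranked by how near their profile over the 6 libraries lay to the mean centred profile of the 10. Genes that varied little between libraries and predicted gene models were left out of the ranking. With only 6 values per gene, close matches can arise without a link between the genes. Likeness was measured as the root mean square difference on the log2 scale over 6 libraries. Aldh4a1, a mitochondrial enzyme of proline breakdown, came nearest at 0.09, with 2.41, 1.76 and 4.08 FPKM in the knockout and 1.06, 2.32 and 1.70 FPKM in wild type. Foxs1 (0.13), Gna15 (0.14), Slc16a12 (0.16), Tmem120b (0.16), Deb1 (0.16) and Slc41a1 (0.16) followed. Foxs1 lay low, at 0.556 to 2.03 FPKM, where the 1 added to FPKM shrinks the differences. Among the 10 themselves, Jun was nearest to their mean at 0.19, while Fosb stood farthest at 0.71, with Klf6 at 0.65 and Fos at 0.63. This measure takes in the size of a gene's swings as well as their direction, so a large value need not mean another direction. Directions did differ in wild-type replicate 1, where Klf6 and Dusp1 deviated by 0.59 and 0.42 from their own means and Fos by -1.55.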

How the data were processed

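RNA of 3 Nmi knockout and 3 wild-type mice was sequenced, 1 library per mouse, and the authors deposited FPKM for 17739 gene symbols in 1 table with samples in rows. FastQC, TopHat, SAMtools and Cufflinks were run on mm10 or GRCm38, per the submitters' processing notes. Versions, parameters, strand and annotation were not given in the sources used here. Gapdh is listed at 0 to 0.0769 FPKM, so a low entry can be a failed estimate. FPKM hold no read counts, and no counting interval was computed.

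Genes with at least 1 FPKM in at least 3 libraries (9767) were tested on log2(FPKM + 1) with limma 3.58.1 in R 4.3.3 (empirical Bayes with intensity trend, two-sided, Benjamini-Hochberg, threshold 0.05). Fold changes on this scale understate low genes. Exact permutation tests (two-sided) used SciPy 1.17.1; 3 against 3 cannot go below 0.1. The test was run on simulated data with noise drawn separately for each gene. Those data lack the first principal component that many genes share, so the check does not cover it. The members, gene lists and tests were chosen with earlier results of these data known. Named beyond the 10 were, per list, the genes with the smallest p (4, or 2 in lists with under 8 tested) and the 2 most abundant; 2 genes that the rules for named genes and likeness pick are not reported here. Mouse numbers do not recur between groups. Alternatives changed the pseudocount, filter, scaling, limma settings and libraries used. The mice are separate animals by their numbers in the labels.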

Additional observations from a re-analysis of the deposited data

How the results depend on the processing

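Under the 16 alternatives, 0 of the 10 immediate early genes passed the adjusted threshold (limma, lowest adjusted p = 0.403, without knockout replicate 2). Over all genes 2 passed it with library quality weights (Nmi and Cdk5rap1) and 1 without both end libraries (Gm7367), against 0 with all libraries, 0 for each single library left out and 0 in the other settings. The quality weights used the gene-by-gene estimator, chosen after the data were seen because the default did not converge. They favoured knockout replicate 1 and wild-type replicate 2, so the genes called and the counts with these weights rest mainly on those libraries. The median log2 fold change of the 10 genes (0.38) ranged from 0.11 with quality weights to 0.64 after trimmed-mean rescaling, and from 0.20 to 0.53 with a single library left out. Of 160 fold changes of the 10 genes under alternatives, 147 kept their direction and 13 reversed, all in Klf6, Ier2, Dusp1 and Atf3. Klf6 was 0.13 after trimmed-mean rescaling, 0.021 after quantile normalization, 0.062 when scaled outside the milk list and 0.22 without both end libraries. With quality weights Ier2 was -0.0010, Dusp1 -0.080 and Atf3 -0.19, and without both end libraries Ier2 was -0.022 and Atf3 -0.34. With single libraries left out, Klf6 ran from -0.43 to 0.12, Ier2 from -0.056 to 0.15, Dusp1 from -0.30 to 0.28 and Atf3 from -0.049 to 0.55. The cause was not tested. Genes at an unadjusted p under 0.05 numbered 130 with all libraries, 326 with no filter, 51 with the stricter filter, 1142 with quality weights and 78 without both end libraries. Leaving out knockout replicate 2 gave 1187, leaving out knockout replicate 3 gave 59, leaving out wild-type replicate 3 gave 632 and leaving out wild-type replicate 1 gave 25. Among the 10 genes 1 to 4 reached it in some alternatives, and 0 did with no filter, with quality weights, without both end libraries, without knockout replicate 3 or without wild-type replicate 1. No paired analysis was possible because the mouse numbers do not recur between the groups.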
